A study of Saccharomyces cerevisiae with 12 samples.

Results

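The 200 genes whose messenger RNA level varied least over the growth conditions of the study were described as a group. They were chosen on the data themselves. Of 7127 identifiers in the table of counts, 5238 had a mean of at least 200 over the 12 libraries as deposited. Each library was divided by its median-of-ratios factor, a factor that makes the typical gene equal in all libraries. The 200 genes with the smallest standard deviation (SD) of log2(scaled count + 1) over the 12 libraries were then taken, which is 3.82% of the 5238. The SD is therefore what chose these genes, and it is given below only as a description. Because the scaling sets the typical gene to be equal everywhere, constancy here means constancy relative to the median gene. Total RNA per cell was not measured, and in bulk cultures fewer cells with a transcript and less of it per cell cannot be told apart.

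The study measured gene expression in BY4743, a diploid laboratory strain of *Saccharomyces cerevisiae*, to set transcription beside the loss of heterozygosity along chromosomes. The 6 environments, with the short names used below, were synthetic complete medium heated to 37°C (SC37), the same medium at 30°C with NaCl added to 40 g/l (NaCl), rich medium with 3% glycerol as the carbon source at 30°C (YPG), rich medium with glucose either at 24°C (YPD24) or at 32°C (YPD32), and plain synthetic complete medium at 30°C as the standard condition (SC30). In each of them 2 cultures were started and propagated separately and collected in advanced growth, so the spread between replicates is that between parallel cultures of 1 strain. BY4743 carries deletions of *URA3* and *LEU2* on both homologs, and both genes were listed at 0 in all 12 libraries. The deposited totals were nearly equal, between 13873000 and 14144500 per library, because the authors had scaled them, and the steps between low values implied 12400000 to 15500000 counted read pairs. The NaCl libraries stood farthest from the rest: over the 5238 genes their median absolute log2 deviation from a gene's mean was 0.791 and 0.728, against 0.202 to 0.422 in the other 10 libraries.

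Most messenger RNAs in yeast change with the growth rate and with stress. Genes for ribosomes and their assembly are turned down together when growth slows, while genes of stress protection and of alternative carbon sources are turned up. Genes that stay level matter in practice, because measurements by quantitative PCR are divided by the level of a reference gene that is assumed not to change. Promoters of the stress-regulated genes often hold a TATA box, and promoters of the less regulated genes more often lack one and bind general factors such as Reb1 and Abf1 instead.

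To show both kinds of promoter, the upstream sequence is printed for genes that the results below return to. The first 3 are the 3 most constant genes, *TIM21*, *YSH1* and *TAF6*. The next 4 are also among the 200: *GLE1*, *RNH202*, *SGT2* and *AGA1* hold, in this order, a Reb1 core, an MCB element of cell cycle promoters, a PACE element of proteasome promoters and a TATA box. The last are *PGK1*, a reference gene in common use, and *SIP18*, the gene of highest SD among the 5238, named after its values were seen. Each stretch runs from 250 to 51 bases before the start codon, on the strand of the gene, in the R64 genome of RefSeq, and capitals mark TATA boxes, Reb1 cores, MCB and PACE elements on either strand.
TIM21 (chrVII:555018-555217, minus strand): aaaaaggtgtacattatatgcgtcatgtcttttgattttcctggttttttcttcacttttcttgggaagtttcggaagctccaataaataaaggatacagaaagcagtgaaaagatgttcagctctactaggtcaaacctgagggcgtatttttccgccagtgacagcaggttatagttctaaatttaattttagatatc
YSH1 (chrXII:699546-699745, minus strand): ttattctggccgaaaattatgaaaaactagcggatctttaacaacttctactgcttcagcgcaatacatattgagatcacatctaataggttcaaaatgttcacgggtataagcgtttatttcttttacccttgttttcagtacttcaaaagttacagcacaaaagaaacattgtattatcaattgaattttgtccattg
TAF6 (chrVII:299779-299978, minus strand): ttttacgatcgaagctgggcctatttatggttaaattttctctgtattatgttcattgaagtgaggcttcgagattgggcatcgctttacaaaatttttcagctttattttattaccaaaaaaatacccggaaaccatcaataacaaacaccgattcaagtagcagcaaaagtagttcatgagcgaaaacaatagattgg
GLE1 (chrIV:87998-88197, plus strand): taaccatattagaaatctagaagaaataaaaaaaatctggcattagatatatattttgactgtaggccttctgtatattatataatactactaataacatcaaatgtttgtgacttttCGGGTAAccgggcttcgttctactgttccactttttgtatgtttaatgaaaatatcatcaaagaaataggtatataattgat
RNH202 (chrIV:1019118-1019317, plus strand): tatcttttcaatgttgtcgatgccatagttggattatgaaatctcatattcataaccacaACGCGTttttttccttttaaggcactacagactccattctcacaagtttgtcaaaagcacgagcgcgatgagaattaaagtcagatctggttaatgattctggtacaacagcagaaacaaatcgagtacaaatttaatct
SGT2 (chrXV:340029-340228, minus strand): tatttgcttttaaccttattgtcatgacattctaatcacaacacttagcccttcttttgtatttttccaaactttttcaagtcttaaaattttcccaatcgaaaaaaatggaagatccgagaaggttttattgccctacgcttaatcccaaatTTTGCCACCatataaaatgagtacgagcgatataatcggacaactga
AGA1 (chrXIV:703449-703648, plus strand): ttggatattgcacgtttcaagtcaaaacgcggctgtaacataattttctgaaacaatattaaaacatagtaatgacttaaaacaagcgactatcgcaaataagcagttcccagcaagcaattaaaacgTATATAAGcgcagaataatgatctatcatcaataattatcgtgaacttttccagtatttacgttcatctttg
PGK1 (chrIII:137496-137695, plus strand): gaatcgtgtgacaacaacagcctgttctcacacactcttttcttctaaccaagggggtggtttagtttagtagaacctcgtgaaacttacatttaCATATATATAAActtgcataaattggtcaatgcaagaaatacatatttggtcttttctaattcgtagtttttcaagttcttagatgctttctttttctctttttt
SIP18 (chrXIII:610766-610965, plus strand): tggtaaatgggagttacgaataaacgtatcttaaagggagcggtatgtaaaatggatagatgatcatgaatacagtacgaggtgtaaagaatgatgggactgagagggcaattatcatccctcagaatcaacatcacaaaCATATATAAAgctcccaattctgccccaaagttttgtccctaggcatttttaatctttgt

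The 3 most constant genes hold none of the marked elements in these stretches. *SIP18*, a salt-induced gene with a TATA box, had 66645 and 39858 scaled counts with NaCl, against 38.5 and 60.8 in SC30. A TATA box was searched for as TATA followed by A or T, then A, then A or T, then A or G, on both strands and within 250 bases before the start codon. It was present upstream of 53 of the 200 genes (26.5%), of 145 of the 200 most variable genes (72.5%), of 35.9% of the 5128 genes of that level with an annotated window, and of 36.4% of all 6001 nuclear protein-coding genes. The stress response element STRE, read as AGGGG, followed the same order: 21 of the 200 genes (10.5%) held it, against 69 of the 200 most variable genes (34.5%) and 19.0% of the 5128. Runs of at least 8 A or T on 1 strand were found in 23.5% of the 200 genes, 28% of the most variable and 32.1% of the 5128.

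Elements of general factors were rare upstream of the most variable genes. In the 200 genes their shares were not far above those of genes at large. The Reb1 core CGGGTAA stood upstream of 21 of the 200 genes (10.5%), of 0 of the 200 most variable genes and of 7.68% of the 5128. An Abf1 consensus was found in 31 of the 200 (15.5%), in 3.5% of the most variable and in 14.8% of the 5128, so for Abf1 the constant genes were close to genes at large. The MCB element ACGCGT, which binds the MBF factor of the G1 phase, was found in 10 of the 200 (5%), in 1.5% of the most variable and in 3.16% of the 5128; the 10 include the repair genes *MSH6*, *PMS1*, *RAD17*, *RNH202* and *UNG1*. For motifs of ribosome biogenesis genes both ends lay below genes at large: the RRPE core AAAATTTT was found in 4% of the 200, in 6% of the most variable and in 9.48% of the 5128, and the PAC core GATGAG in 13% of the 200, in 9.5% of the most variable and in 16.8% of the 5128. The median GC content of the window was 34.8% in the 200 genes and 34.8% in the 5128. A match of letters is not a bound site, the motifs can overlap each other, and upstream windows can reach into a neighbouring gene.

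**Figure D1:**
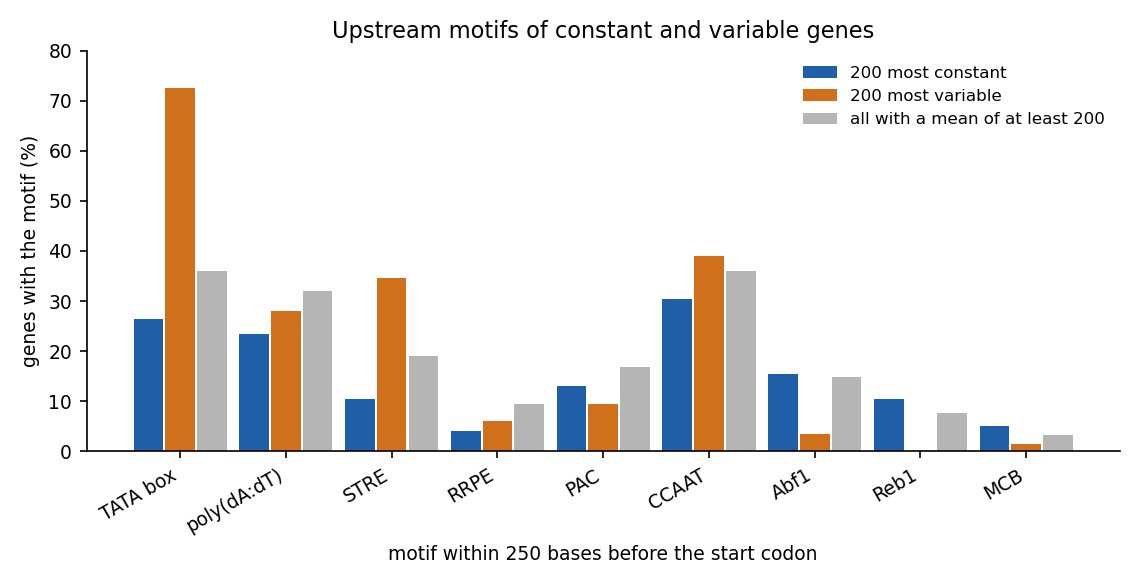
Share of genes (%, vertical axis) with each motif within 250 bases before the start codon, for the 200 most constant genes, the 200 most variable genes and all genes that reach a mean of 200. The TATA box bar of the constant genes is at 26.5% and that of the most variable genes at 72.5%, while the Reb1 core is at 10.5% and 0.

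The most constant gene was *TIM21*, which encodes a component of the translocase that brings proteins through the mitochondrial inner membrane. Its scaled counts were 974 and 971 in SC37, 1052 and 888 with NaCl, 1074 and 1042 in YPG, 971 and 1050 in YPD24, 1016 and 1010 in YPD32, and 991 and 1034 in SC30. The lowest and the highest library differed 1.21-fold, and the widest gap was between the replicates in NaCl. For *TIM21* the SD was 0.0747 over the 12 libraries and 0.0807 within environments, so its environments differed no more than its parallel cultures did.

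*YSH1*, the endonuclease that cuts messenger RNA precursors before polyadenylation, had the same overall SD of 0.0749 but another make-up. It had 1246 and 1193 in SC37, 1171 and 1149 with NaCl, 1122 and 1125 in YPG, 1275 and 1238 in YPD24, 1304 and 1245 in YPD32, and 1143 and 1149 in SC30. Replicates lay close together (SD within environments 0.0306), and all 4 YPD libraries sat above both YPG libraries. *TAF6*, a subunit of TFIID and SAGA that helps to load RNA polymerase II, had a lowest count of 1465 in the second NaCl library, a median of 1703 and a highest count of 1837 in the second YPD library at 32°C. *SRB4*, a subunit of the head of Mediator, ranged from 943 to 1138 and was also lowest in the second NaCl library.

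The other 6 of the 10 most constant genes had SDs between 0.0827 and 0.0882. *SMF2*, a manganese transporter of intracellular vesicles, ranged from 1732 to 2136, and *TRE2*, which helps to send the manganese transporters to degradation, ranged from 1139 to 1429. Both were highest in the first YPG library. *SLD3*, needed to start DNA replication at origins, ranged from 587 to 726 and was highest in the second NaCl library, and *AIR2*, an RNA-binding subunit of the TRAMP complex of nuclear RNA surveillance, ranged from 493 to 583 and was highest in the same library. *APL2*, a large subunit of a clathrin adaptor, ranged from 1667 to 2097 with its maximum in the first YPG library. *IRC5*, a putative ATPase, ranged from 1253 to 1508 with its minimum in the first NaCl library. Among the 10 genes the second NaCl library held the minimum of *TIM21*, *TAF6* and *SRB4* and the maximum of *SLD3* and *AIR2*. The first YPG library held the minimum of *YSH1* and the maximum of *TIM21*, *SMF2*, *TRE2* and *APL2*.

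**Figure D2:**
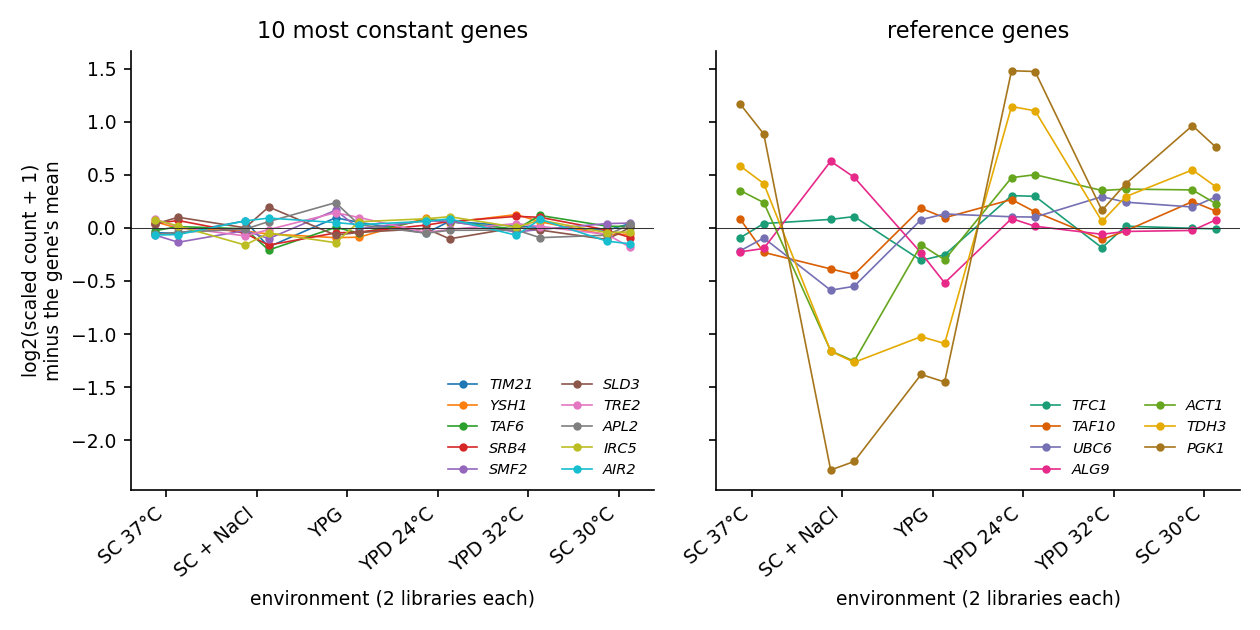
Deviation of log2(scaled count + 1) from the mean of the gene (vertical axis) in each of 12 libraries, 2 points per environment, for the 10 most constant genes and for 7 reference genes in common use; lines join the libraries of a gene. *SLD3* and *APL2* reach about the edge of the narrow band of the constant genes, while *PGK1* spans 3.76 log2 units and *ACT1* 1.76.

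Over the 200 genes the SD had a median of 0.134, against 0.520 over the 5238 genes. The highest library exceeded the lowest by a factor of 1.16 to 1.51, with a median of 1.34. All 200 genes stayed within a 2-fold range, as did 1333 of the 5238 (25.4%), and 157 of the 200 stayed within 0.5 on the log2 scale. The limit of the choice fell in a dense part of the distribution. *PRP39*, a splicing factor, had an SD of 0.1609, and *UNG1*, the uracil-DNA glycosylase and the last gene taken, 0.1614. Just outside, *NCB2*, a negative cofactor of transcription, and *BCK1*, a kinase of the cell wall integrity pathway, both had 0.1614. The genes on both sides of the limit are thus alike, and the number 200 marks no gap.

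The spread of these genes was not only that of the cultures. The SD between the means of the environments had a median of 0.124 and the SD between replicates within an environment 0.0756, and counting error alone would give a median SD of 0.0444 at these levels. Counting error amounted to a median of 11.8% of the variance in the 200 genes and of 0.796% in the 5238. Replicates of the 200 genes were only slightly closer than those of genes at large: the SD within environments had a median of 0.0957 over the 5238. In NaCl, where the replicates were farthest apart, the median absolute difference between them was 0.113 for the 200 genes and 0.149 for the 5238.

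The 200 genes were of middling abundance. Their mean scaled count had a median of 1055, against 1253 for the 5238 genes, and their mean FPKM, which is per transcript length, had a median of 43.5, against 64.6. Among genes with a mean of 800 to 1600, 5.88% were chosen, and among those of 400 to 800, 5.69%. The share was 1.13% at 200 to 400, where counting error is largest, 0.531% at 3200 to 6400, and 0.244% above 6400. The 200 genes together took 1.54% to 1.93% of all counts in a library. The abundance of highly expressed genes was thus rarely level: the median SD of genes above 6400 was 1.17.

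*SGT2*, which hands newly made tail-anchored membrane proteins to the GET pathway, was the most abundant of the 200 genes, with a mean of 7671 scaled counts and 509 FPKM. It had 9690 and 8794 scaled counts with NaCl and between 6878 and 7752 in the other 10 libraries, so its NaCl cultures did not overlap with any other. *GLC7*, the catalytic subunit of a protein phosphatase with many partners, was next with a mean of 5168 scaled counts and 382 FPKM, and was lowest in the second NaCl library with 4410 scaled counts. *CHS5*, which exports chitin synthase from the Golgi, had a mean of 4798, *PBP1*, a partner of the poly(A)-binding protein, 4039, and *SPN1*, an elongation factor of RNA polymerase II, 3035. Per length, *SPN1* (170 FPKM), *CHS5* (165 FPKM) and *PSG1* (164 FPKM) followed *GLC7*.

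The 5 least abundant genes belonged to different processes. *MCM22*, a kinetochore protein, had a lowest scaled count of 184, a median of 221 and a highest of 251. *AGA1*, the subunit that anchors the a-agglutinin of mating cells to the wall, had 267, 324 and 361; a diploid such as BY4743 does not mate. The other 3 were *RAD34* of nucleotide excision repair (287, 326 and 394), *GIC1* of bud formation (287, 332 and 383), and *SLI1*, an acetyltransferase (307, 367 and 380).

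**Figure D3:**
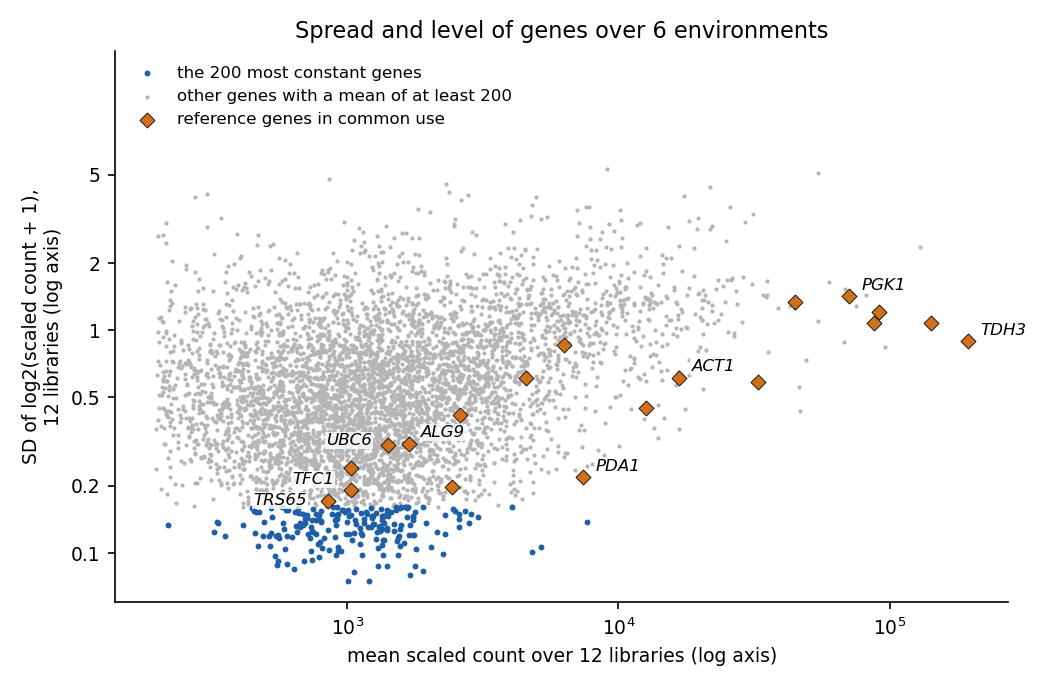
SD of log2(scaled count + 1) over 12 libraries (vertical, log axis) against the mean scaled count (horizontal, log axis) of the 5238 genes that reach a mean of 200. The 200 most constant genes lie below an SD of 0.161 and mostly between means of 400 and 3200, and 19 reference genes in common use all lie above them, from *TRS65* at 0.172 to *PGK1* at 1.42.

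To describe what the genes do, 54 lists of genes with a known function were compared with the 200. At least 1 list held 126 of them, and 74 were in none. Of all genes with a mean of at least 200, 3.82% were chosen, and this share is the background for the shares that follow. Of the 54 lists, 2 were drawn up after the names of the 200 genes had been seen, DNA repair with the damage checkpoint and mitochondrial gene expression, and both are left out of the shares by role. Genes of RNA processing had 22 of 184 (12%) among the 200, genes of the cell cycle and of DNA replication 13 of 142 (9.15%), and genes of the secretory pathway 24 of 272 (8.82%). Transcription had 11 of 125 (8.80%), chromatin 11 of 137 (8.03%) and signalling 12 of 153 (7.84%). At the other end, metabolism had 0 of 200, protein folding 0 of 50 and translation 5 of 405 (1.23%).

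**Figure D4:**
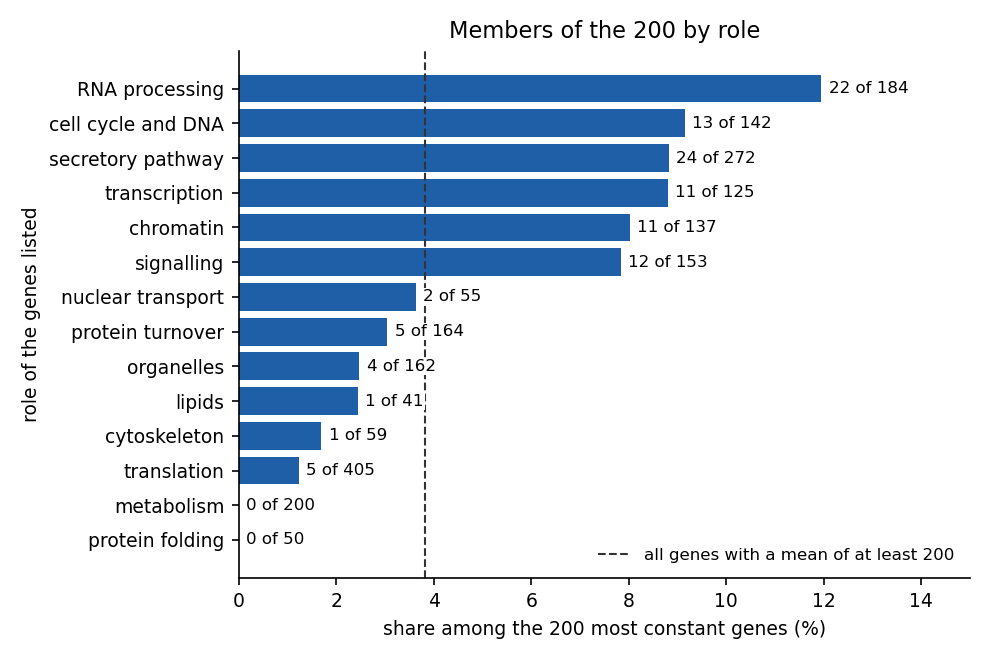
Share of the genes of each role that are among the 200 most constant genes (%, horizontal axis), with the number of genes and the number listed beside each bar; the dashed line is the share among all 5238 genes, 3.82%. RNA processing reaches 12%, cell cycle and DNA 9.15%, and metabolism and protein folding are at 0; the 2 lists drawn up after the names had been seen are left out.

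DNA repair and the damage checkpoint had 13 of 73 genes (17.8%). This is one of the lists drawn up with the names known, so its share is not independent of them. The most constant were *RAD1*, a nuclease of excision repair (SD 0.104, mean 1791), *CHL1*, a helicase of sister chromatid cohesion (SD 0.11, mean 1116), *RNH202*, a subunit of ribonuclease H2 (SD 0.118, mean 623), and *PMS1* of mismatch repair (SD 0.118, mean 899). The others were *RAD9*, *REV1*, *MSH3*, *RAD34*, *HRQ1*, *RAD52*, *MSH6*, *RAD17* and *UNG1*. *RAD52*, which loads the recombinase in homologous recombination, ranged from 1180 scaled counts in the first YPD32 library to 1586 in the first SC30 library. The median SD of the 73 genes was 0.285, and this value too is not independent of the names.

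Other genes of chromosomes were the condensin subunit *SMC4* (SD 0.121), *SMC5* (SD 0.0983) of a related complex and securin *PDS1* (SD 0.126), which made 3 of 24 in their list. Kinetochore and spindle pole genes had 6 of 61, with *CEP3* (SD 0.117), *AME1* (SD 0.119), *CDC31* (SD 0.120) and *ASK1* (SD 0.123) the most constant. Genes of DNA replication had 4 of 57: *SLD3*, the cohesion and replisome factor *CTF4*, the clamp loader subunit *RFC2* and the origin recognition subunit *ORC3*. Many genes of replication and mitosis are periodic in the cell cycle, which a bulk culture averages.

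Factors that form the 3′ ends of messenger RNA had 5 of 29 (17.2%): *YSH1*, *SWD2* (SD 0.092), *GLC7* (SD 0.106), *CLP1* (SD 0.124) and *PFS2*. All 5 are subunits of, or work with, the cleavage and polyadenylation machinery. Splicing factors had 8 of 70 (11.4%), led by *PRP4* (SD 0.102), *SLU7* (SD 0.117), *SPP2* (SD 0.122) and *ISY1* (SD 0.143). Factors of messenger RNA decay had 6 of 47 (12.8%), with *HBS1* and *SKI2* of the rescue and decay of stalled messages and *CAF40* and *CDC36* of the deadenylase complex the most constant. In the list of messenger RNA export were *THO2* and *CDC31*. *CEG1*, which adds the cap to messenger RNA, and *ABD1*, which methylates it, were also among the 200.

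The transcription machinery was represented by single subunits of its large complexes. Mediator had 3 of 24, *SRB4*, *RGR1* (SD 0.146) and *MED7* (SD 0.153). The general factors of RNA polymerase II had 3 of 34, *TAF6*, *TOA1* (SD 0.111) and *TFB4* (SD 0.149), and elongation factors 3 of 21, *CTK2*, *SPN1* and *DST1*. SAGA and NuA4 had 3 of 22, all of them SAGA subunits: *SPT3* (SD 0.0962), *SPT7* (SD 0.128) and *SPT20* (SD 0.158). Of the core subunits of RNA polymerase II, 0 of 10 were chosen, with a median SD of 0.363. That list is too short to be told apart from the share of 3.82% over all genes. The list of nucleosome remodellers had 4 of 49 (8.16%), *IES1*, *NHP10*, *IES2* and *ARP8*, which encode subunits of INO80. *ARP6* of the SWR1 complex (SD 0.106), which is not in that list, was also among the 200. For RNA polymerase III the assembly factors *BRF1* (SD 0.116) and *TFC4* (SD 0.128) were chosen.

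In the secretory pathway the constant genes came from several lists, among them vesicle tethering and sorting, membrane fusion and glycan synthesis. Golgi tethers had 4 of 28 (14.3%): *TRS23*, *IMH1*, *BET3* and *COG6*. Vacuolar tethering and sorting complexes had 4 of 33: *VPS5* of retromer and *VAM6*, *VPS33* and *VPS41* of HOPS. Clathrin adaptors had 3 of 30, *APL2*, *APS3* and *APM1*, and membrane fusion proteins 4 of 41, *USE1*, *SEC20*, *VAM3* and *SED5*. Synthesis of glycans and of glycosylphosphatidylinositol (GPI) anchors had 6 of 42 (14.3%), with *BST1*, *GPI17*, *ALG11* and *GPI1* the most constant. The COPII coat (0 of 22) and the entry of proteins into the endoplasmic reticulum (0 of 25) had none. At the share of 3.82% over all genes, lists this short can hold none, so no contrast within the pathway is read from them.

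Signalling genes of the 200 included parts of the TOR pathway, by which yeast reads nutrients. They were 6 of 59: *KOG1*, a subunit of TORC1 (SD 0.0977, mean 1351), the GTPase *GTR2* that regulates it (SD 0.107), the phosphatase regulator *TAP42* (SD 0.138), *VAM6*, *NPR3* and *PKH3*. Nuclear factors that express the mitochondrial genome, the other list drawn up with the names known, had 6 of 35 (17.1%): *AEP2*, *MTF2*, *RMD9*, *CBP2*, *PET309* and *CCM1*, of which the first 4 had SDs from 0.0934 to 0.136. Mitochondrial import had 3 of 33, *TIM21*, *TIM54* and *TIM18*.

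There were 17 lists, with 748 genes, from which no gene was chosen. They held the cytosolic ribosomal proteins (0 of 131, median SD 1.21), ribosome biogenesis factors (0 of 128, median SD 0.852), the aminoacyl-tRNA synthetases (0 of 22, median SD 1.11), glycolysis and fermentation (0 of 28, median SD 1.09), amino acid biosynthesis (0 of 87, median SD 0.864) and the heat shock proteins (0 of 34, median SD 0.952). Mitochondrial ribosomal proteins (0 of 69) had none either although their median SD was only 0.332. A gene list can thus be far less variable than the typical gene and still hold none of the 200. At the share of 3.82% over all genes, the shorter of these lists can also hold none without standing apart.

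The 200 genes did not share a place in the genome. They lay on 15 of the 16 chromosomes, with 8 of 93 genes of chromosome VI (8.60%) and 0 of 75 of chromosome I as the extremes. Within 20 kb of a chromosome end lay 2 of them (1.00%), against 2.01% of the 5128. Adjacent genes were both chosen in 7 places. *SLD3* (chrVII:295932-297938, plus strand) and *TAF6* (chrVII:298178-299728, minus strand), the sixth and the third most constant gene, end 239 bp from each other, and *PRP4* and *HDA3* end 67 bp from each other on chromosome XVI. The median coding length was 1650 bp, against 1311 bp for all annotated genes that reach a mean of 200, and 4 of the 200 encode uncharacterized proteins (2.00%, against 4.13%).

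For 3 of the 200 identifiers the counts are less certain. YIL082W-A is the gag-pol gene of a Ty3 retrotransposon and is 99.0% identical over 3079 bases to its copy YGR109W-B, so reads of the copies may have been split or shared between them. Its level was constant, with 1315 and 1237 scaled counts in SC37 and 1047 to 1367 in the other 10 libraries. *VPS5* overlaps *VAM10* on the opposite strand for 345 bp, and *THO2* overlaps the reading frame YNL140C on the same strand for 563 bp. The use of strand in the counting is not given in the sources used here.

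A small SD leaves room for small differences between environments, which a fit over all genes called in some members. Under limma with Benjamini-Hochberg adjustment over 6082 genes, 19 of the 200 passed an adjusted p of 0.05 in SC37 against SC30, where 29.5% of all genes passed. In NaCl 58 passed (83.1% of all genes), in YPG 54 (70.6%), in YPD24 46 (55.4%) and in YPD32 37 (45.4%), and between YPD24 and YPD32 35 (41.5%). These contrasts are the ones that the choice had made small, so nothing is read from the lower shares. No log2 difference of any of the 200 exceeded 0.5 in size. The 5 comparisons with SC30 share its 2 libraries. In them 72 of the 200 genes passed in none, as did 246 of the 6082 genes tested.

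The direction of these small differences rested on the scaling. Of the 200 genes 9 were called higher and 10 lower in SC37 (13.5% and 16.1% of all genes), 39 and 19 in NaCl (40.8% and 42.3%), 37 and 17 in YPG (35.8% and 34.8%), and 29 and 17 in YPD24 (27.0% and 28.5%). They were 21 and 16 in YPD32 (22.2% and 23.2%), and 20 and 15 for YPD24 against YPD32 (21.1% and 20.5%). With the counts as deposited, the median of all tested genes moved to -0.22 in NaCl, -0.11 in YPG, -0.29 in YPD24 and -0.26 for YPD24 against YPD32. The splits then became 1 and 74 in NaCl, 3 and 41 in YPG, 0 and 83 in YPD24, 8 and 11 in YPD32, and 0 and 79 between the YPD temperatures. With upper-quartile scaling they became 24 and 4 at 37°C, 33 and 25 in NaCl, and 11 and 50 in YPG. Closer to the first splits, that scaling gave 24 and 16 in YPD24 and 17 and 17 in YPD32. Between the YPD temperatures it gave 19 and 14. With FPKM values the splits were 53 and 10 in NaCl and 36 and 16 in YPG. Neither a rise nor a fall of the 200 genes as a group can therefore be read from the data.

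The counts of members called fell in most fits that left a compared environment with 1 library. Each of these fits also called fewer of all tested genes. A smaller sample and dependence on a particular library cannot be told apart there, so no such dependence is read from the counts. In NaCl the count was unchanged without either NaCl library. Only the larger relative falls are listed here. At 37°C 8 of the 200 genes passed without either library of 37°C or without the first of SC30, and 10 without its second. In YPG 30 passed without the first library of SC30. In YPD24 18 and 23 passed without its first and second library, and 19 and 30 without the first and second library of SC30. In YPD32 these numbers were 10 and 18 without its own libraries, and 15 and 17 without those of SC30. Between the YPD temperatures 12 and 13 passed without the first and second library at 24°C, and 11 and 15 without those at 32°C.

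Between the means of any pair of environments, a member differed by up to 0.487 on the log2 scale. In the 6 comparisons fitted, the largest difference of a member was that of *GLE1*, a factor that releases messenger RNA from the nuclear pore. It had 2023 and 1804 scaled counts with NaCl, against 1363 and 1482 in SC30, a log2 difference of 0.43 ± 0.08 (SE, n = 2 each). *CDC50*, a subunit of a lipid flippase, had 889 and 839 in YPD32, against 636 and 654 in SC30, a log2 difference of 0.42 ± 0.09. *VAM6* had 984 and 1032 in SC37, against 729 and 795 in SC30, a log2 difference of 0.40 ± 0.08. The replicates of the compared environments did not overlap in these genes, which is no separate result because they were named for their large differences. Each is still among the most constant of the 5238 genes.

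*MSH3*, which recognizes loops in mismatched DNA, had 1228 and 1274 in YPG, against 957 and 939 in SC30, a log2 difference of 0.40 ± 0.07. *GPI8*, the protease of the GPI transamidase, had 1161 and 1202 in YPD24, against 942 and 880 in SC30, a log2 difference of 0.38 ± 0.08. Under the counts as deposited that difference of *GPI8* was 0.09 and was not called. *NAT2* had 1320 and 1228 in YPD24, against 1618 and 1719 in YPD32, a log2 difference of -0.39 ± 0.09.

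Of the 200 genes, *VAM6* and the histone deacetylase *RPD3* passed in all 5 comparisons with SC30, as did 664 of the 6082 genes tested, and for both it was SC30 that stood apart. *RPD3* had 1919 to 2348 scaled counts in the other 10 libraries, against 2751 and 2762 in SC30. *NUP49*, a nucleoporin, passed in 4, as did 1336 of the 6082.

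None of 20 genes in common use as references in yeast was among the 200. As 3.82% of all genes with a mean of at least 200 were chosen, a list of this size can hold none without standing apart. Of the 20 genes, 19 had a mean of at least 200. The exception, *QCR9* of the respiratory chain, fell below that level. The closest were *TRS65* of the TRAPP tether (rank 249, SD 0.172), *TFC1* of the RNA polymerase III factor TFIIIC (rank 361, SD 0.191), *HEM2* of heme synthesis (rank 401, SD 0.198), the pyruvate dehydrogenase subunit *PDA1* (rank 562, SD 0.219) and *TAF10* (rank 701, SD 0.241). The ubiquitin-conjugating enzyme *UBC6* and the mannosyltransferase *ALG9* had ranks 1196 and 1244 (SD 0.304 and 0.310), the TATA-binding protein gene *SPT15* rank 1980 and the pyrophosphatase *IPP1* rank 2195. The actin gene *ACT1*, the elongation factor gene *TEF1* and the tubulin genes *TUB1* and *TUB2* had SDs of 0.613, 0.586, 0.610 and 0.861. The glycolytic and fermentative genes *TDH3*, *ADH1*, *FBA1*, *CDC19*, *TPI1* and *PGK1* had SDs from 0.893 to 1.42.

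*ACT1* had 6984 and 6522 scaled counts with NaCl, 13966 and 12660 in YPG, and between 18266 and 22082 in the other 8 libraries. It was lower in NaCl than in SC30 by a log2 difference of -1.50 ± 0.10 (limma adjusted p = 5.27e-09) and lower in YPG by -0.52 ± 0.10 (adjusted p = 0.000277). *PGK1*, the phosphoglycerate kinase of glycolysis, had 10331 and 10925 scaled counts with NaCl, against 98101 and 85174 in SC30. Of the 20 reference genes 18 passed the test in NaCl (83.1% of all genes), 16 in YPG (70.6%), 11 in YPD24 (55.4%), 6 in YPD32 (45.4%) and 2 at 37°C (29.5%).

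Whether constancy carries over to conditions that the choice did not use was examined by leaving each environment out in turn, choosing 200 genes on the remaining 10 libraries and measuring them in the environment left out. The measure was the difference on the log2 scale between the mean of the environment left out and the mean of the other 5. In 4 environments the chosen genes stayed close to level, and genes at large also moved less there than in NaCl and YPG. The median absolute difference was 0.12 for SC37 (0.24 over all genes of that mean), 0.15 for YPD24 (0.34), 0.11 for YPD32 (0.30) and 0.12 for SC30 (0.25). Within 0.25 of level were 81.5%, 74.0%, 84.5% and 80.5% of the chosen genes in these environments.

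In NaCl and YPG the chosen genes moved more, as did genes at large. The median absolute difference was 0.45 in NaCl (0.89 over all genes) and 0.24 in YPG (0.48), and only 31.0% and 52.0% of the chosen genes were within 0.25 of level. In NaCl 37 of the chosen 200 differed by more than 1 on the log2 scale, and in YPG 8 did. In all 6 environments the median of the chosen genes was below that of genes at large. A clear example is *TKL1*, the transketolase of the pentose phosphate pathway, named after its values were seen. It had 608 and 644 scaled counts with NaCl, against 13733 to 16079 in the other 10 libraries, and was among the 200 chosen without NaCl. *SLA1*, of the endocytic actin patch and also named after its values were seen, was the most constant gene without YPG. It had 2757 and 2827 in YPG, against 4307 to 4747 in the other 10.

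**Figure D5:**
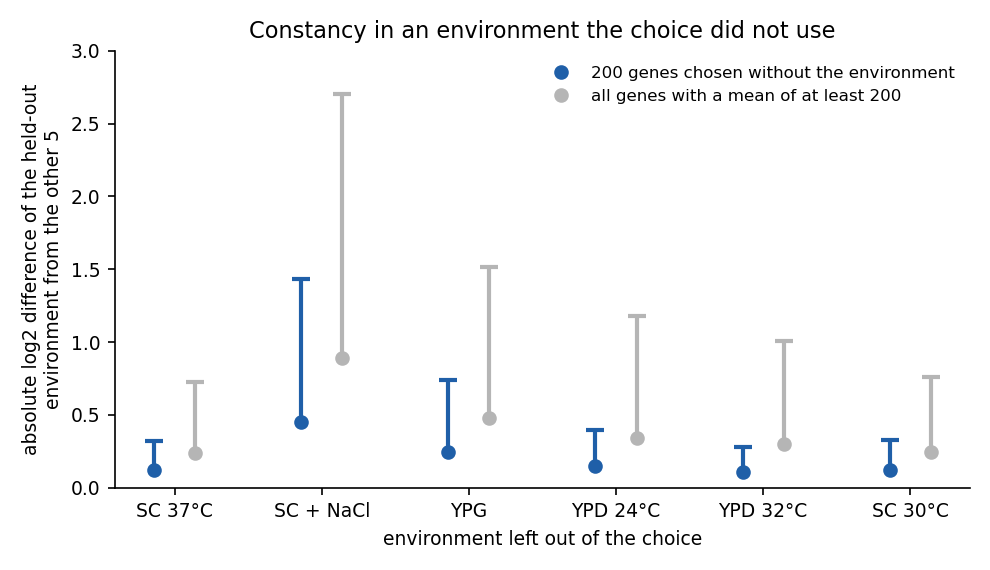
Absolute log2 difference of an environment from the other 5 (vertical axis) for 200 genes chosen without that environment and for all genes that reach a mean of 200; points are medians and upper ends are the 90th percentiles. The chosen genes have a median of 0.11 to 0.15 in 4 environments, 0.24 in YPG and 0.45 in NaCl, each below the value for all genes.

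Replicates gave a second check, of agreement between parallel cultures in the same 6 environments and not of carry-over to other conditions. The 200 genes chosen on the 6 libraries of replicate number 1 had a median SD of 0.145 in the 6 of number 2, against 0.529 over all genes, and those chosen on number 2 had 0.157 in number 1, against 0.560. These choices shared 109 genes with each other, and 149 and 153 genes with the 200. The list is therefore only partly fixed by these data. It shared 77 genes with the list chosen without NaCl, 118 with that without YPG, and 156 to 173 with those without any other environment. In all 6 of these lists stood 56 genes, each of them among the 200, and 90 of the 200 were chosen under the other scalings of the counts, under a pairwise ratio measure and with any 1 library left out. All of the 10 most constant genes were among these 90.

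As references, single genes and small sets were compared in the environment left out of their choice. A single gene, the most constant one without that environment, deviated by up to 0.68 on the log2 scale (1.60-fold, *SLA1* in YPG). The mean of the 3 most constant genes deviated by up to 0.17, of the 10 by up to 0.14 and of the 50 by up to 0.07. Of the genes in common use, *ACT1* deviated by up to 1.45 (2.73-fold, in NaCl), *PGK1* by up to 2.69 (6.45-fold), *TRS65* by up to 0.26, *PDA1* by up to 0.33 and *TFC1* by up to 0.36. The mean of *ALG9*, *TAF10*, *TFC1* and *UBC6* deviated by up to 0.20, less than any of the 4 genes alone at its largest. That value was in YPD24, where all 4 genes were higher than elsewhere. In NaCl the mean deviated by -0.10, with *ALG9* and *TFC1* higher than elsewhere (0.66 and 0.11) and *TAF10* and *UBC6* lower (-0.50 and -0.68). Of the 20 genes, 15 deviated by more than 0.5 in at least 1 environment, and 14 deviated most in NaCl. All of these deviations are relative to the median gene, to which a reference set of many genes is tied by construction.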

How the data were processed

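RNA-seq of 12 cultures of BY4743 was analysed from the processed tables. The authors aligned reads to the R64 genome with Hisat2, used SAMtools 1.9 for sorting, and ran cuffquant and then cuffnorm. The resulting count table, deposited by the authors, is a signal: estimated counts scaled to a common library size, of which 74.2% to 82.0% of those between 0.5 and 20 fell on a multiple of 1 step (within 0.01 of it). The authors also deposited FPKM values. No columns of the authors' own comparisons were used. As whole counts could not be recovered, limma was used where a count test had been foreseen. The label of the medium says YPD for the YPG cultures, and the titles were followed.

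Counts were scaled by median-of-ratios factors from genes above 0 in all libraries with a mean of at least 10, and analysed as log2(count + 1). Log2 differences of low genes are understated by the added 1. limma 3.58.1 in R 4.3.3 was fitted to the 12 libraries with environment as the only factor and a variance trend on the mean, for 6082 genes with a mean of at least 10, with Benjamini-Hochberg adjustment within each comparison. The choice and the fit were run on simulated data as a check of the code. The constant genes planted there stood well apart from the rest, so membership near the limit was not tested. Python 3.11.15 with pandas 2.3.3, numpy 2.4.6 and matplotlib 3.10.9 was used for the rest, and blastn 2.17.0 for copies (at least 85% identity over 150 bases). Of the identifiers 6047 matched the RefSeq annotation of R64, and all 200 members did. Depth limits low genes: counting error is largest there, and standard errors cover the spread of the 2 cultures per environment only.

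The members and the lists were chosen with earlier results of these data known. Members named are the 10 of smallest SD, the 5 of highest and of lowest mean count, the 5 of highest FPKM, the 2 on either side of the limit, up to 4 of smallest SD in each list with at least 2 members (any further ones after their values were seen), and the member with the largest difference in each comparison; all genes of the reference list and *URA3* and *LEU2* are named too. Alternatives were other scalings, FPKM, minimum levels, pseudocounts, measures of spread, the replicate block, fits of only the compared environments, and each environment or library left out. The counts of 1 list of signalling genes are not reported here.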

Additional observations from a re-analysis of the deposited data

How the results depend on the processing

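The list of 200 genes shared at least 151 genes with each of the lists made with other minimum levels, pseudocounts, measures of spread, upper-quartile scaling or FPKM, 149 and 153 with those from 1 replicate number, and 168 to 191 with those lacking 1 library. It shared 110 with the list from counts as deposited, 77 without NaCl and 118 without YPG. Without a minimum level, 49 of the chosen genes had a mean under 1. Members called under the counts as deposited numbered 8 in SC37, 83 in YPD24, 19 in YPD32 and 79 between the YPD temperatures, and 37 in NaCl in a fit of only the compared environments. With 1 library left out, 8 to 27 members were called in SC37, 39 to 63 in NaCl, 30 to 67 in YPG, 18 to 54 in YPD24, 10 to 39 in YPD32 and 11 to 49 between the YPD temperatures; over all genes 1155 to 2185, 4766 to 5065, 3865 to 4460, 2670 to 3661, 1981 to 3068 and 1691 to 2861, in the same order. An environment left with 1 library is assumed to vary like the others. Replicate numbers were not used as pairs in the main fit. The correlation of replicate differences was 0.22 for SC37 with SC30 and between -0.10 and 0.04 for the other comparisons fitted. Whether cultures of the same number had anything in common was not tested. With a replicate block, 17 members were called in SC37, 58 in NaCl, 55 in YPG, 44 in YPD24, 34 in YPD32 and 31 between the YPD temperatures, none over 1.5 times from the fit without it. The median held-out difference of 0.13 over environments was 0.13 to 0.18 under scalings, minimum and pseudocount chosen after seeing the data. The call of *GPI8* in YPD24 was lost with the counts as deposited. With 2 cultures per environment, and a list cut where many genes have the same SD, the order within the 200 and the membership near its end are loose. Calls mostly fell in fits that left a compared environment with 1 library. Whether any library mattered beyond that was not tested.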
